A study of Arabidopsis thaliana with 6 samples.

Results

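Basic helix-loop-helix (bHLH) transcription factors were followed in roots of 5-day-old Arabidopsis thaliana seedlings after 12 h of treatment. The half-strength Murashige-Skoog medium held 5 mM boric acid, an excess of boron, or was the same medium without that excess. The question of the comparison is which transcripts differ in roots early in boron toxicity. Each group had 3 Affymetrix ATH1 arrays, labelled as biological replicates 1 to 3 and and referred to as boric acid 1, 2 and 3 and control 1, 2 and 3. The labels name no accession, mutation or transgene for either group, and do not say whether replicates were separate batches of plants, so p-values measure the spread between these arrays.

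The genes were chosen by name: a measured gene qualified if its symbol or a synonym was MYB or BHLH followed by a number. The rule was set with earlier results of these data known. BHLH101, PYE and UPB1 were set aside by that rule. Of 13355 measured genes 6 qualified, and all 6 are bHLH genes. Of 125 MYB genes with such a name in the RefSeq table, 0 had a probe set with a gene name, so the MYB family is not analysed here. Of 21 bHLH genes with such a name, these 6 did. Each is read by 1 probe set of its own, so no choice between probe sets was needed. A gene is called measured here if a probe set was named for that gene alone. A further 8730 fitted probe sets had no gene name, and which genes they read was not examined.

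bHLH proteins bind DNA as pairs, through a basic stretch that reads the E-box motif and a helix-loop-helix that joins the partners. Of the 6 genes, 5 belong to the regulators of iron homeostasis. bHLH34 (AT3G23210), bHLH104 (AT4G14410), ILR3 or bHLH105 (AT5G54680) and bHLH115 (AT1G51070) form subgroup IVc, which activates genes of the iron deficiency response, among them the bHLH genes of subgroup Ib and PYE. ILR3 is also known from a mutant that resists the auxin conjugate IAA-leucine. bHLH121 (AT3G19860), of subgroup IVb like PYE, pairs with subgroup IVc proteins in that response. AT1G22490, or bHLH94, belongs to subgroup Ia, with the stomatal regulators SPCH, MUTE and FAMA.

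None of the 6 transcripts passed the threshold between boric acid and control. Over all 6 arrays bHLH115 had the largest change, to 0.752 times the control level, and without both arrays numbered 1 bHLH121 did. For each of the 6, control arrays differed among themselves by more than the group means did, and the spread was widest for bHLH121 and bHLH34. All 6 mean changes were negative, between -0.41 and -0.13 on the log2 scale with a median of -0.20, while 53.6% of all genes had a negative change and their median was -0.02. The signs of bHLH34 and bHLH121 turned when single arrays were left out. By limma's test, 0 of 6 members had a Benjamini-Hochberg adjusted p under 0.05, against 2.71% of all 13355 genes, and 0 of 6 had an unadjusted p under 0.05, against 14.9%. With the replicate number as a block, 0 of 6 passed, against 7.84% of genes, and 1 of 6, bHLH115, had an unadjusted p under 0.05, against 21.2%. No member had boric acid arrays that all lay on 1 side of the control arrays, against 20.0% of genes.

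A change is the boric acid mean less the control mean in log2 units, given with its standard error (SE) from limma. The mean of a group is given with its standard deviation (SD). In whole roots, fewer cells of a type and less RNA per cell cannot be told apart. The number of arrays limits the precision. The arrays numbered 1 stood apart in a measure of RNA integrity, namely how far the 3′ probe set of actin exceeded the 5′ probe set: the excess was 2.96 on boric acid 1 and 2.60 on control 1, and 1.23 to 1.71 on the other 4 arrays. Of 17 markers of root cell types only EXPA7, an expansin of root hair cells, was measured, at 2.89 to 4.41 on all 6 arrays. Of 13 markers of green tissue 4 were measured, and their summed level on the linear scale was 26.9 to 52.1 in boric acid and 36.1 to 57.0 in control roots. In limma 0 of the 4 passed, against 2.71% of all genes. LHCB4.2 and PSBY, 2 of the 4, were lower in boric acid at an unadjusted p under 0.05, which 14.9% of all genes reached in either direction.

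bHLH115 was at 5.27, 5.43 and 5.13 on boric acid 1 to 3 and at 6.06, 5.62 and 5.39 on control 1 to 3. Only boric acid 2 reached above a control array, control 3, so the groups overlapped by that single pair. The means were 5.28 ± 0.15 (SD, n = 3) in boric acid and 5.69 ± 0.34 in control. The change was -0.41 ± 0.19 (SE, limma adjusted p = 0.359, and 0.176 with the replicate block). Its 95% interval ran from 0.547 to 1.03 times control. Within each pair of equally numbered arrays bHLH115 was lower in boric acid, by differences of -0.79, -0.18 and -0.26. The change was -0.56 to -0.23 when 1 array was left out, the smallest without control 1, and -0.22 without both arrays numbered 1.

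bHLH104 was at 6.43, 6.38 and 6.51 in boric acid and at 6.87, 6.71 and 6.44 in control. The boric acid arrays lay close together, and control 3 fell among them. The change was -0.24 ± 0.13 (SE, adjusted p = 0.472), between means of 6.44 ± 0.06 (SD, n = 3) and 6.68 ± 0.22. Its 95% interval was 0.679 to 1.06 times control. Of the 3 equally numbered pairs, 2 were lower in boric acid, by -0.43 and -0.34, and the pair numbered 3 differed by 0.06.

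ILR3 was at 5.63, 5.44 and 5.58 in boric acid and at 5.95, 5.52 and 5.65 in control. Control 1 and control 3 lay above all boric acid arrays, and control 2 fell among them. The change was -0.16 ± 0.14 (SE, adjusted p = 0.671), with an interval of 0.710 to 1.13 times control. All 3 equally numbered pairs were lower in boric acid, the pair numbered 1 by -0.32 and the others by -0.08 each. For bHLH104, bHLH115 and ILR3 the intervals therefore left out a fall to under 0.547 times control and a rise to over 1.13 times control.

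bHLH34, the remaining gene of subgroup IVc, was at 3.19, 2.03 and 2.22 in boric acid and at 4.01, 1.86 and 2.02 in control. Both arrays numbered 1 were high, whatever the treatment, and the other 4 lay between 1.86 and 2.22. The means were 2.48 ± 0.62 (SD, n = 3) and 2.63 ± 1.20, and the change was -0.15 ± 0.62 (SE, adjusted p = 0.949). In that fit, without the block, its interval of 0.321 to 2.52 times control leaves its response undetermined. With the replicate block the SE was 0.22 (limma adjusted p = 0.774). Without control 1 the change was 0.54, and without both arrays numbered 1 it was 0.18 ± 0.14 (adjusted p = 0.564).

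bHLH121 was at 2.77, 4.08 and 4.45 in boric acid and at 2.02, 5.17 and 5.15 in control. Both arrays numbered 1 were low, the reverse of bHLH34, and control 1 was the lowest of the 6. Over all arrays the means were 3.77 ± 0.88 (SD, n = 3) and 4.11 ± 1.81, a change of -0.34 ± 0.92 (SE, adjusted p = 0.915). With the replicate block the SE was 0.35 (limma adjusted p = 0.652). The pair numbered 1 differed by 0.75, higher in boric acid, while the pairs numbered 2 and 3 differed by -1.08 and -0.70, lower in boric acid. Without both arrays numbered 1, bHLH121 was lower in boric acid by -0.89 ± 0.16 (SE, n = 2 arrays a group, limma adjusted p = 0.0319, and 0.0210 with the replicate block), or 0.539 times control. In that fit 1 of 6 members passed, against 6.06% of all genes. Whether the response itself differed between the pair numbered 1 and the others was not tested. The summed green tissue markers also went different ways in the pairs: they were higher in boric acid within the pair numbered 1 (52.1 against 36.1) and lower within the pairs numbered 2 (26.9 against 57.0) and 3 (32.8 against 38.0). The part of these cells, and of RNA integrity, in the bHLH121 values was not tested.

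**Figure D1:**
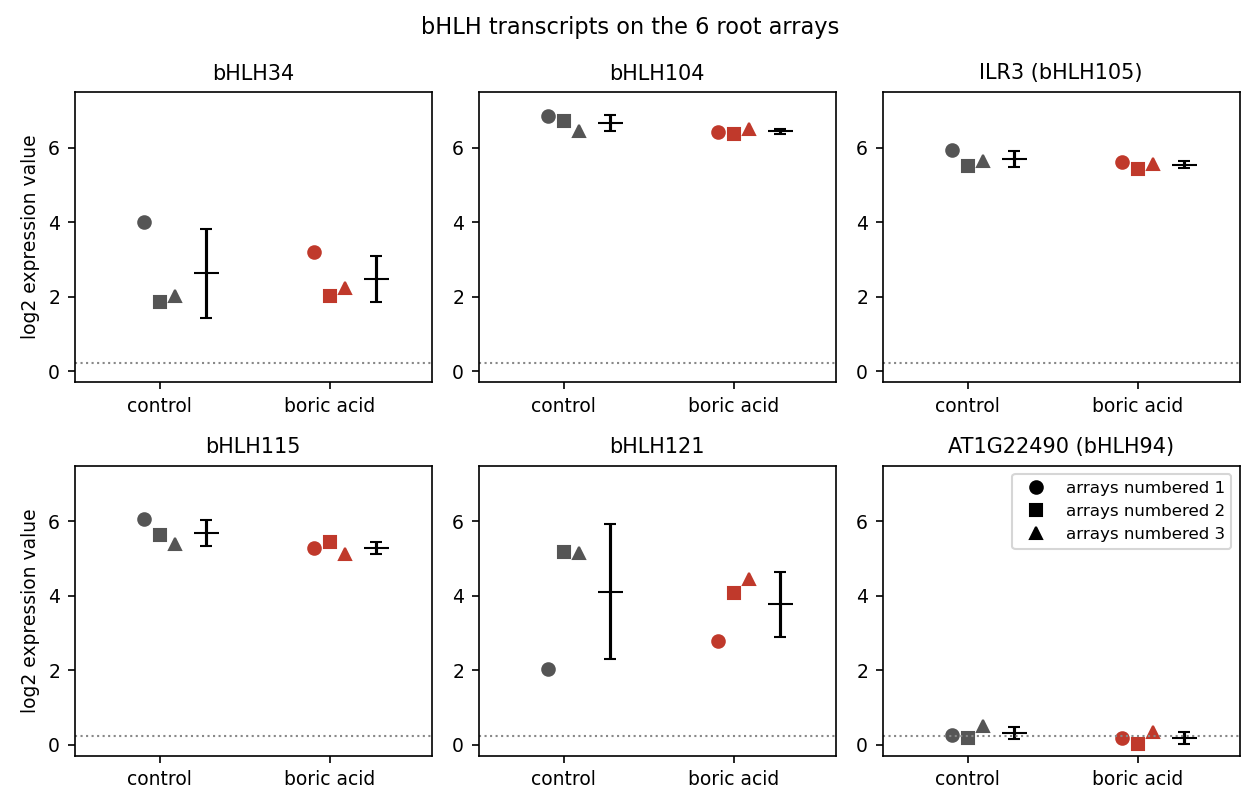
Log2 expression value (vertical axis) of each bHLH transcript on each control (grey) and boric acid (red) array, with symbols for the replicate number, the mean and SD of each group (black, n = 3) and the highest TrpnX control value (dotted line, 0.217). bHLH34 is high and bHLH121 low on both arrays numbered 1 (circles), while bHLH104, ILR3 and bHLH115 stay within about 1 log2 unit on all 6 arrays.

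**Figure D2:**
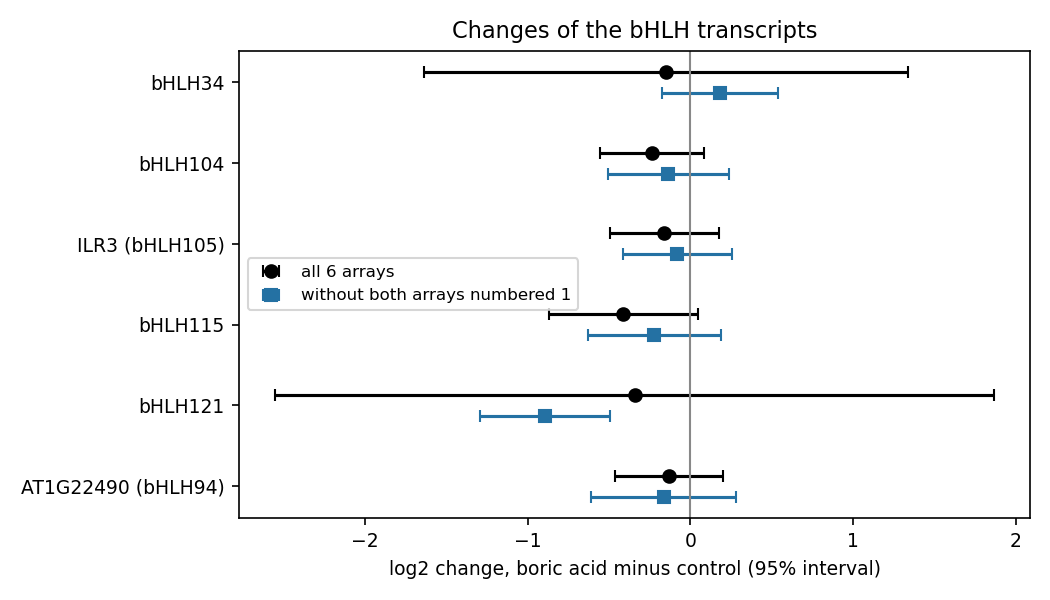
Log2 change (boric acid minus control, horizontal axis) with its 95% interval in limma for each bHLH transcript, over all 6 arrays (black circles) and without both arrays numbered 1 (blue squares). The intervals of bHLH34 and bHLH121 are far wider over all arrays, and without those arrays only that of bHLH121 lies wholly below 0, at -0.89.

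The difference between the arrays numbered 1 and the other 4 was set beside that of all genes, as a description. It was -2.31 for bHLH121, and 0.225% of all genes had a difference of at least that size. For bHLH34 it was 1.57, reached by 0.869% of genes. The other members differed by -0.03 to 0.27, sizes that 28.3% to 84.9% of genes reached. The spread of the arrays around their group means was above that of 99.8% of genes for bHLH121 and of 99.0% for bHLH34, but near the middle of all genes for bHLH104 (44.0%), ILR3 (47.5%) and AT1G22490 (46.5%). bHLH115 lay at 72.6%. The clock gene GI, whose transcript cycles over the day, also separated these arrays, at 2.42 on boric acid 1 and 3.06 on control 1 against 0.36 to 0.75 on the others. Whether the arrays numbered 1 differ in time of day was not tested.

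**Figure D3:**
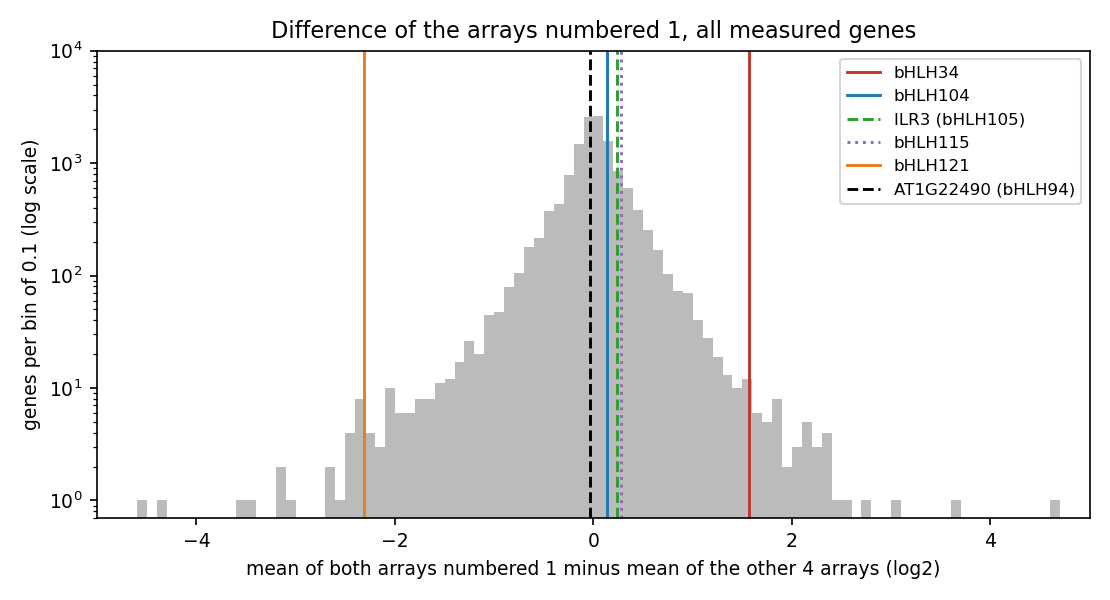
Number of genes (log scale) by the difference between the mean of both arrays numbered 1 and the mean of the other 4 arrays (log2, bins of 0.1), with a vertical line for each bHLH gene. bHLH121 at -2.31 and bHLH34 at 1.57 lie in opposite tails, and the other 4 lie near 0.

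AT1G22490 (bHLH94) was at 0.19, 0.0081 and 0.34 in boric acid and at 0.25, 0.17 and 0.50 in control. TrpnX controls, for which plants hold no matching transcript, reached 0.217, so the gene was not clearly above background in either group. Its change of -0.13 ± 0.14 (SE, adjusted p = 0.734) is not read as a level difference, although all 3 equally numbered pairs were lower in boric acid. That held for 3 of 6 members, with bHLH115 and ILR3, against 21.5% of all genes. SPCH, MUTE and FAMA, the regulators of the same subgroup, were at -0.07 to 0.60 on the 6 arrays.

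Downstream genes of the iron response were read from a list of 50 genes of iron uptake, chelation, storage and control, of which 8 had a named probe set. None of the 8 rose or fell, against 2.71% of all genes, and 1, AT3G13610, had an unadjusted p under 0.05, against 14.9%. All 8 changes were negative, as were 53.6% of those of all genes, and ran from -0.99 to -0.03 with a median of -0.29. BHLH101, of subgroup Ib, was at 0.82, 1.61 and 1.72 in boric acid and at 1.80, 2.40 and 1.93 in control. Its change was -0.66 ± 0.28 (SE, adjusted p = 0.311). Its groups did not overlap, which held for 2 of the 8 genes, with AT3G58060, near the 20.0% of all genes. PYE, a repressor in the same response and bHLH121's relative, had a change of -0.45 ± 0.44 (adjusted p = 0.711) and, like bHLH34, its highest values on both arrays numbered 1, at 3.28 and 3.93 against 2.28 to 2.96. AT3G13610 (F6'H1), the hydroxylase of coumarin synthesis, changed by -0.99 ± 0.38 over all arrays (adjusted p = 0.263) and by -0.43 without both arrays numbered 1 (adjusted p = 0.461). BGLU42, a β-glucosidase that acts on coumarin glycosides, had a change of -0.07 ± 0.22 (adjusted p = 0.933). The other 4 genes were BTSL1 (AT1G74770), BTSL2 (AT1G18910), S8H (AT3G12900) and MTP8 (AT3G58060), with changes of -0.40 to -0.03. Of these, AT3G12900 (0.35 to 0.79) and AT3G58060 (0.22 to 0.60) were near background.

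A further 13 bHLH genes, with names that do not contain BHLH, were looked up from a list, and all 13 were measured. The measured genes were not searched for every bHLH gene, so counts in this list are not rates for the family. Of these 0 passed, against 2.71% of all genes, and 1, ATMYC1, had an unadjusted p under 0.05, against 14.9%. Their changes ran from -0.79 to 0.29 with a median of 0.00. ATMYC1, a regulator of epidermal cell patterning, was at 1.06, 1.00 and 1.09 in boric acid and at 2.15, 1.70 and 1.65 in control. All boric acid arrays lay below all control arrays, as for MYC4, and all lay above them for FAMA, which was near background at 0.30 to 0.60. Groups that do not overlap were thus found for 3 of 13 genes, near the 20.0% of all genes. The change of ATMYC1 was -0.79 ± 0.15 (SE, adjusted p = 0.0520), and with the replicate block it fell (adjusted p = 0.0281), as 3.20% of all genes did in that fit. MYC4, a jasmonate-responsive partner of glucosinolate MYB proteins, changed by -0.71 ± 0.29 (adjusted p = 0.301), and its near relative MYC3 one of -0.06 ± 0.22 (adjusted p = 0.939). NAI1, which is needed for endoplasmic reticulum bodies, had a change of -0.51 ± 0.30 (adjusted p = 0.493). LHW, a regulator of vascular cell number in the root meristem, had the highest change, 0.29 ± 0.24 (adjusted p = 0.651).

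**Figure D4:**
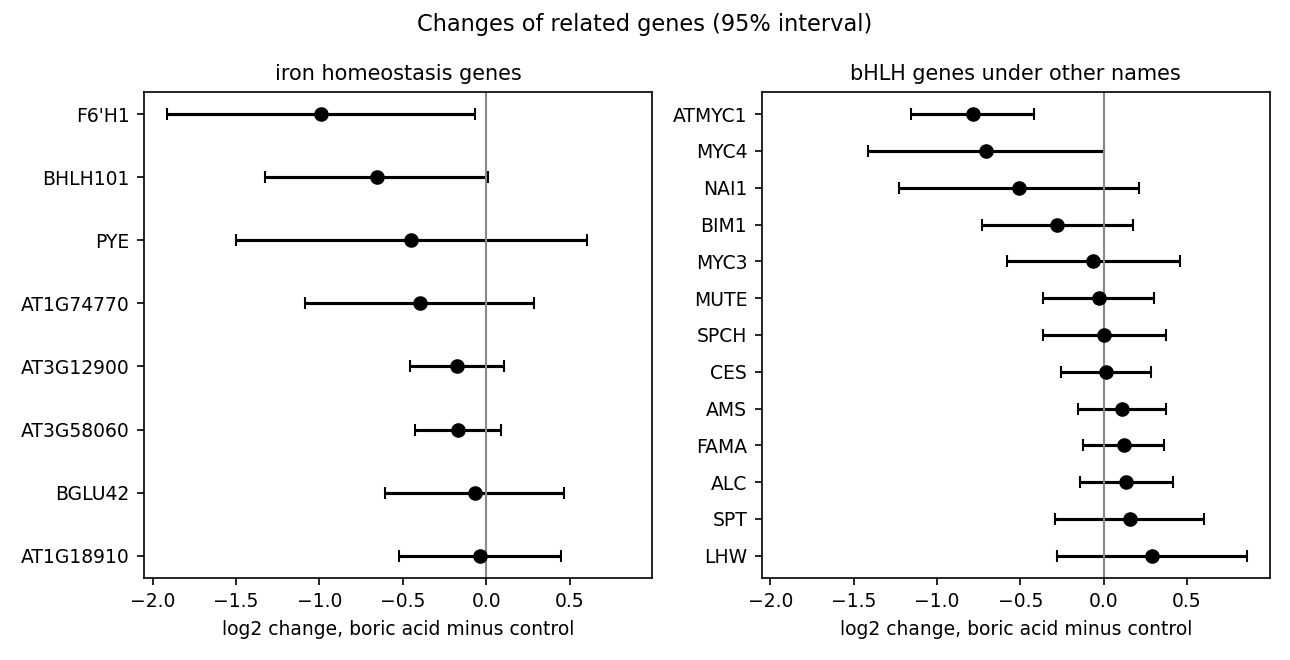
Log2 change (boric acid minus control, all 6 arrays) with its 95% interval in limma for 8 genes of iron homeostasis (left) and 13 bHLH genes known by other names (right). All 8 iron genes lie below 0 with most intervals crossing it, and ATMYC1 at -0.79 is the lowest of the bHLH genes.

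Target pathways of MYB and bHLH proteins were read from lists. These were written with earlier results of these data known, so their counts are not independent support. Of 21 genes of glucosinolate synthesis, which MYB proteins with MYC partners activate, 3 were measured and 2 fell, against 1.09% of all genes. UGT74B1, a glucosyltransferase of the core pathway, was at 3.21, 3.37 and 3.24 in boric acid and at 4.75, 4.43 and 4.31 in control. Its groups were well apart, with a change of -1.22 ± 0.14 (SE, adjusted p = 0.0117) and of -1.32 to -1.10 without 1 array. The call was lost without boric acid 2, boric acid 3 or control 2. BCAT4, which starts chain elongation of methionine, was at 0.055, 0.36 and 0.46 in boric acid, near background, and at 6.57, 4.44 and 5.64 in control. It fell by 5.26 ± 0.50 (adjusted p = 0.00801), a call lost without boric acid 2, and the size of the fall is limited by the background level in boric acid. AOP3 did not pass. Of 11 genes of flavonoid synthesis 4 were measured and none passed in limma, against 2.71% of all genes, with 0 at an unadjusted p under 0.05, against 14.9%. The largest change among them was that of UGT78D1, a flavonol glycosyltransferase, at -0.58 ± 0.54 (adjusted p = 0.698). It rested on control 1, at 2.44 against 0.48 and 0.57 on the other control arrays, and without that array it was 0.06. HCT, of 18 lignin and secondary wall genes the only one measured, had a boric acid mean higher by 0.78 ± 0.20 (adjusted p = 0.105; replicate block, 0.0306). Of 12 genes of root hair growth 2 were measured, and EXPA18 differed by 0.67 ± 0.22 (adjusted p = 0.190; replicate block, 0.0353). HCT and EXPA18 thus passed in the fit with the block and not in the fit without it. With the block 7.84% of all genes passed, in either direction. Neither passed in any fit without 1 array, all run without the block. TRY, an R3-MYB that competes with MYB proteins for bHLH partners, was near background at 0.09 to 0.40 with a change of -0.14 ± 0.11 (adjusted p = 0.623).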

How the data were processed

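RMA was run by the authors, per the submitters' processing notes, and log2 values per probe set were deposited. Version and parameters are not given in the sources used here. Of 22810 probe sets, 64 controls were set aside and 22746 were fitted with limma 3.58.1 in R 4.3.3 (lmFit, eBayes, two-sided, Benjamini-Hochberg over all of them, threshold 0.05). Names came from the array's table and RefSeq genes of the TAIR10.1 assembly: 13513 probe sets had a single gene, 503 several, and 8730 were not named. The probe set with the highest mean stood for a gene. The members and lists were chosen with earlier results of these data known. The iron list, the bHLH genes under other names and the MYB-related genes were added after the data had been seen, and genes of those lists were named after their values were seen. Otherwise the rule named all members, and of each other list the genes past the threshold or else the largest change. GI and UPB1 were added outside that rule as reference genes, and AOP3 was named beside the genes of its list that passed. Same-numbered arrays deviated together from their group means (correlations over probe sets of 0.608, 0.231 and 0.618, against -0.62 to 0.28 for differently numbered arrays), so the numbers were taken as pairs, and the block was fitted as an alternative. Alternatives were the block, quantile normalization, median centring, a filter at 0.217, an intensity trend, array weights, the mean of probe sets, and leaving out arrays. The fit was tested on simulated data. Sequences are not shown here.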

Additional observations from a re-analysis of the deposited data

How the results depend on the processing

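The number of bHLH members past the threshold was 0 in the fit over all arrays and under every alternative but the removal of both arrays numbered 1, where it was 1 (bHLH121), and likewise 1 with the replicate block added, an alternative chosen after seeing the data. Over all genes the count was 362, and 1047 with the replicate block, 675 with array weights, 809 without both arrays numbered 1, 1335 without them and with the block, and 36 to 573 when 1 array was left out (36 without boric acid 2, 573 without control 1); the cause was not tested. The change of bHLH34 became positive with array weights (0.019) and without both arrays numbered 1 (0.18, with the block also 0.18), and ran from -0.54 to 0.54 when 1 array was left out. That of bHLH121 ran from -1.39 to 0.18 in such fits. The other 4 members kept a negative change in all alternatives run, and the block changed the call of no member. No alternative could be run for the MYB family, which has no member with a named probe set. Among 90 changes of members under alternatives, 80 kept sign and call, 8 turned sign and 2 gained the call. The block, the low-value filter, the intensity trend and the mean of probe sets leave the change of each member as it was. Those fits could not turn a sign, so this tally does not measure robustness.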

Other observations

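Besides TRY, 2 MYB-related genes without a family number were looked up after the data had been seen, and both had a named probe set. Other MYB-related genes were not searched for. MYBC1, a GARP-type MYB-related gene, was at 3.44, 4.49 and 5.12 on boric acid 1 to 3 and at 3.80, 5.96 and 5.89 on control 1 to 3, a change of -0.87 ± 0.68 (SE, limma adjusted p = 0.634). Without both arrays numbered 1 it was lower in boric acid by -1.12 (adjusted p = 0.0399), in a fit that 6.06% of all genes passed. AT5G47390, or MYBH, a MYB-related gene linked to cell expansion, was at 3.60, 4.55 and 5.00 in boric acid and at 2.65, 5.17 and 4.90 in control, with a change of 0.14 ± 0.71 (adjusted p = 0.959). Like bHLH121, both genes had their lowest values on the arrays numbered 1. UPB1, a bHLH protein that controls peroxide distribution in root tips, was lowest on control 1, at 3.61 against 4.88 to 5.59 on the other arrays.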
